A study of Rattus norvegicus with 6 samples.

Results

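The 45 genes described here encode 34 collagen chains, 10 laminin chains and fibronectin (Fn1). They were chosen by name and depth: symbols made of Col, a number, a and a number, symbols made of Lama, Lamb or Lamc and a number, and Fn1, each with at least 100 UMIs (unique molecular identifiers, each of which stands for 1 captured transcript) over all barcodes of the series. Of 25399 genes listed in the matrices, 54 met the name rule and 45 also reached 100 UMIs; the member nearest above the limit was Col24a1 with 105 UMIs and the symbol nearest below it was Col26a1 with 60. The libraries are droplet 3′ libraries of brain cells of Sprague Dawley rats, all labelled postnatal day 21, and the series title names the pons, a part of the brainstem. There were 3 libraries of sham rats and 3 of rats with pontine infarction, and the comparison asked how cells of the pons differ after a stroke. No other genotype or agent is named for either group, the labels give no time after the infarction. Their treatment note counts 3 rats with pontine infarction, but ties no library to an animal and gives no number of sham rats. The p-values below therefore measure the spread between these libraries, which may be technical.

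Collagens are secreted as trimers of chains. The fibrillar types I, III, V and XI form the fibres of vessel adventitia and meninges, whereas type IV collagen and the laminins build the basement membrane, the sheet that lies under endothelium and around pericytes, smooth muscle cells and the end-feet of astrocytes. Types XV and XVIII bridge basement membranes to the tissue around them, and fibronectin is the glycoprotein of plasma and of provisional wound matrix to which cells attach through integrins.

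The type IV genes lie in head-to-head pairs, and the start regions of 4 of them are printed because these genes recur in the vascular results below. RefSeq start regions (250 bases before to 50 bases after the start, build GRCr8; the build of the deposited counts is not given in the sources used here) were matched by symbol for 35 of the 45 members, and Fn1 was among the 10 without an entry. Col4a1 and Col4a2 start 77 bases apart on opposite strands, so that their regions share 176 bases, and 2 GC boxes (GGGCGG on either strand) fall in the shared stretch. Col4a3 and Col4a4 start 413 bases apart and share 88 bases, which hold 0 GC boxes, while the regions of Col4a5 and Col4a6, whose starts lie 1415 bases apart, share none. In the 4 regions, each written 5′ to 3′ on the strand of its gene, capitals mark the GC boxes: Col4a1 at chr16:84885347-84885646 on the plus strand, Col4a2 at chr16:84885471-84885770 on the minus strand, Col4a3 at chr9:91323740-91324039 on the plus strand and Col4a4 at chr9:91323528-91323827 on the minus strand.
Col4a1: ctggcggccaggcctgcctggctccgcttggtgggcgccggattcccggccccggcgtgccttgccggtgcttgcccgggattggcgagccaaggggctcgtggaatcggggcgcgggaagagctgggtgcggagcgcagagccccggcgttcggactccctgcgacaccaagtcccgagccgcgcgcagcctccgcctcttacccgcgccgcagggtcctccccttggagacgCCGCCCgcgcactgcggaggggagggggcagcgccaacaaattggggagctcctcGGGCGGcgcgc
Col4a2: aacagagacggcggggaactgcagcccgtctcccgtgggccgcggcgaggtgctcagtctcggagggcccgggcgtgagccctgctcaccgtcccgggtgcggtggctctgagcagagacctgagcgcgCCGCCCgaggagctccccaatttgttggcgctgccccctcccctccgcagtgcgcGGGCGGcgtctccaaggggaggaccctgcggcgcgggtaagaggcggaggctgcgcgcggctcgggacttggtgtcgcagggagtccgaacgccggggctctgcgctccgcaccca
Col4a3: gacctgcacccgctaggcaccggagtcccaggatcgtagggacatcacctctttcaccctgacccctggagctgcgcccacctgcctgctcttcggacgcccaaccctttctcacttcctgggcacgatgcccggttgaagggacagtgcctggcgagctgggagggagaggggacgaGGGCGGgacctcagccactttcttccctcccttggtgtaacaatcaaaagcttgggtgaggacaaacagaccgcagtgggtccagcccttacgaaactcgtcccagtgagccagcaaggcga
Col4a4: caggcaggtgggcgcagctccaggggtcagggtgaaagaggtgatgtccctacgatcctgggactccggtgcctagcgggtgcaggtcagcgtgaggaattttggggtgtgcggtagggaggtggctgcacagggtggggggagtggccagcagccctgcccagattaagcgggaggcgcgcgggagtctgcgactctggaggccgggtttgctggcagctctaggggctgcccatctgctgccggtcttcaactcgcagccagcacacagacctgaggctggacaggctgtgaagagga
GGGCGG on either strand occurred in 22 of the 35 member regions (62.9%), against 34.9% of 27457 start regions of the same length. The median GC content was 61.0% in the member regions and 52.3% in all of them, and CCAAT on either strand occurred in 11 member regions (31.4%), against 37.7% of all. These matches describe letters only.

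The matrices held 6399 to 8649 barcodes and 56416475 to 69924334 UMIs per library, of which 37853 cells were kept and grouped into 32 clusters with the members left out of the clustering. Clusters were named X-like from marker genes that hold no member, and 28 clusters received a name. The mix of cells differed between the groups: smooth muscle-like cells numbered 2445 to 2966 per sham library and 0 in every infarction library, pericyte-like cells 957 to 1448 and 4 to 7, macrophage-like cells 115 to 134 and 1890 to 2474. Pairs of libraries shared 8 to 21 barcodes, at most 0.313% of a library. Free RNA from lysed cells reaches all droplets, so levels in T or NK-like cells, which make little matrix, are given as its background. Of 726551 member UMIs, 7.27% lay in barcodes left out for mitochondrial RNA. Another 5.01% lay in 869 barcodes removed as doublets or for few genes. For Col1a1, 1 of those barcodes, in sham 1, held 7468 UMIs, 10.4% of its total.

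Over all kept cells, nearly all members were lower in the infarction libraries, and Fn1 was the exception among abundant ones. Members made up 0.318%, 0.239% and 0.253% of all UMIs in the 3 sham libraries and 0.108%, 0.110% and 0.0950% in those of infarction. Lamb2, the beta chain of vascular laminins, stood at 478, 392 and 403 CPM (UMIs of a gene per 1000000 UMIs of the cells summed) in sham and 3.38, 3.60 and 4.60 in infarction. Col4a1, the main chain of type IV collagen, stood at 505, 389 and 432 CPM in sham and 5.56, 5.50 and 8.20 in infarction. Fn1 stood at 58.3, 38.4 and 19.7 CPM in sham and 1017, 1019 and 873 in infarction. The groups did not overlap for these 3 genes.

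In edgeR's quasi-likelihood test with Benjamini-Hochberg adjustment over all 14613 genes tested, 3 of 45 members rose and 39 fell (adjusted p under 0.05, called below), where 33.2% of all genes were called higher and 38.1% lower. Fn1 rose by 5.11 ± 0.45 (log2 fold change ± SE, adjusted p = 1.61e-04), Lamb3, a chain of epithelial laminin, by 4.37, and Col17a1, a transmembrane collagen of epithelial attachment, by 4.15. The last pair had means under 2 CPM and are named because their values stood out. The median log2 fold change was -4.60 over the members and -0.13 over all genes, and the latter was -0.60 when libraries were scaled by their totals alone, which called 3243 of all genes higher and 7542 lower in place of 4850 and 5569. Among type IV genes, Col4a1 fell by 5.65 ± 0.22, Col4a2 by 6.47, Col4a5 by 6.35, Col4a3 by 4.88 and Col4a4 by 4.30. Among laminins, Lama5, the alpha chain of arterial and capillary basement membrane, stood at -7.20 ± 0.15 and Lamb2 at -6.32 ± 0.17, both called. Lamc3 had 678 UMIs in sham and 0 in infarction, which makes it at least 254-fold lower against a limit of 3 UMIs over the group. The fibrillar genes Col3a1 and Col1a1 fell by 5.22 and 4.45, and the smallest falls were those of Col5a3 (1.31), Col7a1 (1.52), Col11a1 (1.64) and Col16a1 (1.85). Col15a1, Col9a2 and Col20a1 were not called, at -0.42, -1.34 and 0.64. Col15a1 was called lower with library totals alone (-0.88, adjusted p = 0.0209) and without sham replicate 3 (-0.62, 0.0348), and Col12a1 was no longer called without infarction replicate 1 (-2.10, adjusted p = 0.0581). In such sums, fewer cells of a class and less RNA per cell cannot be told apart. Mural cells were fewer in infarction, and so were astrocyte-like (843 in sham, 94 in infarction), choroid plexus-like (586 and 4) and fibroblast-like cells (283 and 48). The part of each class in the falls was not tested. The labels do not say whether the libraries hold the whole pons or a part of it such as the lesion.

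The classes that held the transcripts changed with the group. In sham, smooth muscle-like cells held the largest share of UMIs for 24 members, pericyte-like cells for 6, and fibroblast-, astrocyte- and choroid plexus-like cells for 4 each. In infarction the largest share lay in fibroblast-like cells for 17 members, in macrophage-like cells for 7, and in endothelial-, microglia- and oligodendrocyte precursor-like cells for 6 each. Of 72579 Col4a1 UMIs in sham, 74.6% came from smooth muscle-like and 16.8% from pericyte-like cells, whereas of 1194 in infarction 70.4% came from endothelial-like cells. Of 49690 Col1a1 UMIs in sham, 48.0% came from smooth muscle-like and 47.6% from fibroblast-like cells, and of 1850 in infarction 96.8% came from 48 fibroblast-like cells. Fn1 went from 6437 UMIs in sham, 46.5% of them fibroblast-like and 21.4% endothelial-like, to 180103 in infarction, of which 85.0% were macrophage-like and 8.71% monocyte-like. Col4a4, which codes a chain of the type IV network of kidney and cochlea, had 28793 UMIs in sham, 53.0% smooth muscle-like and 38.0% pericyte-like, and 1195 in infarction, 74.4% of them microglia-like.

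**Figure D1:**
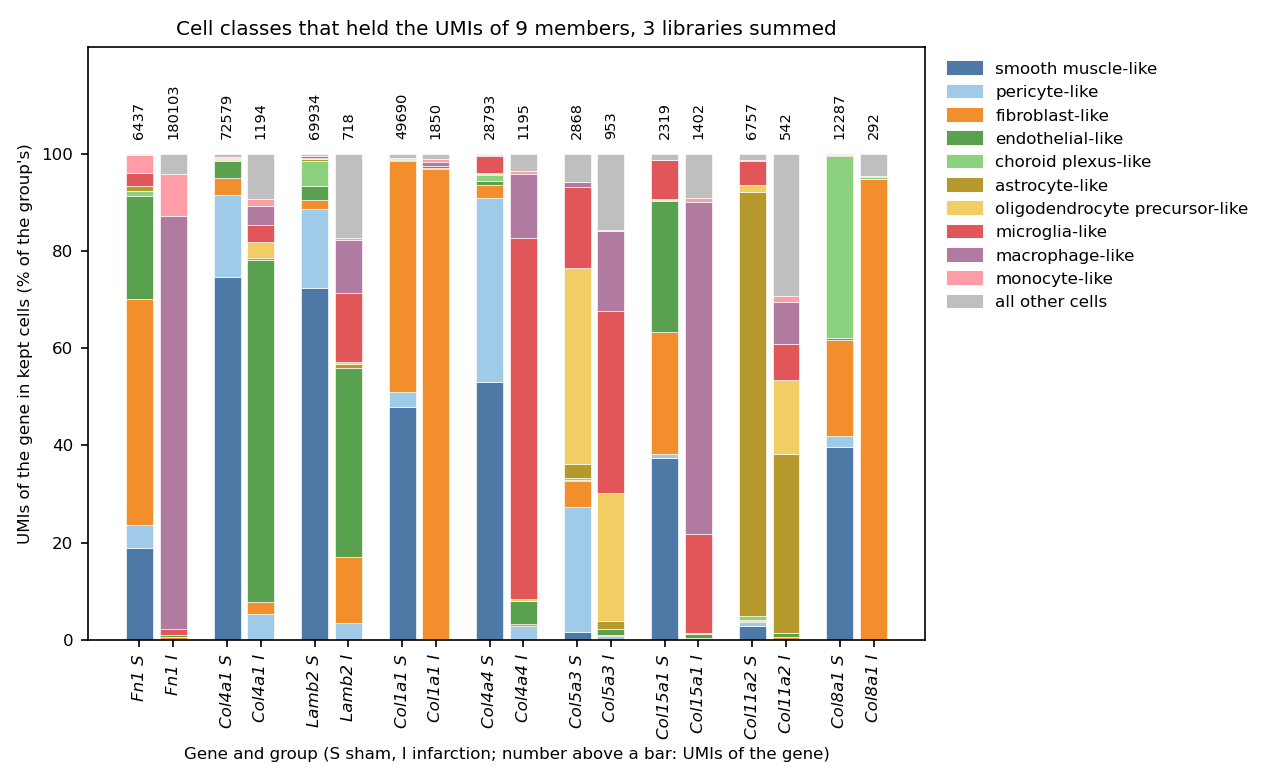
Share of each gene's UMIs by cell class (vertical axis, % of the group's UMIs in kept cells, 3 libraries summed) for 9 members in sham (S) and infarction (I), with the gene's UMIs above each bar. Smooth muscle-like and pericyte-like blue dominates the sham bars of Col4a1, Lamb2 and Col4a4, and macrophage-like purple holds 85.0% of Fn1 in infarction.

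Within a class the members' share of all UMIs was highest in fibroblast-like cells, 2.05%, 2.05% and 2.04% in sham 1 to 3. It was 0.310% to 0.327% in smooth muscle-like, 0.289% to 0.324% in pericyte-like and 0.211% to 0.293% in endothelial-like cells, and 0.00518% to 0.00773% in T or NK-like cells. The free RNA of sham libraries was gauged against Tagln, an actin-binding gene of smooth muscle. Col4a1 stood at 21.1 UMIs per 1000 Tagln UMIs in smooth muscle-like cells (95% exact interval of the ratio 21.0 to 21.3, which covers the counting error of both genes only), at 17.1 (9.07 to 29.4) in T or NK-like, 19.6 (13.8 to 27.0) in macrophage-like and 21.0 (18.1 to 24.2) in microglia-like cells. Those 4 ratios lie within counting error of each other. In endothelial-like and fibroblast-like cells the ratio was 575 and 570.

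**Figure D2:**
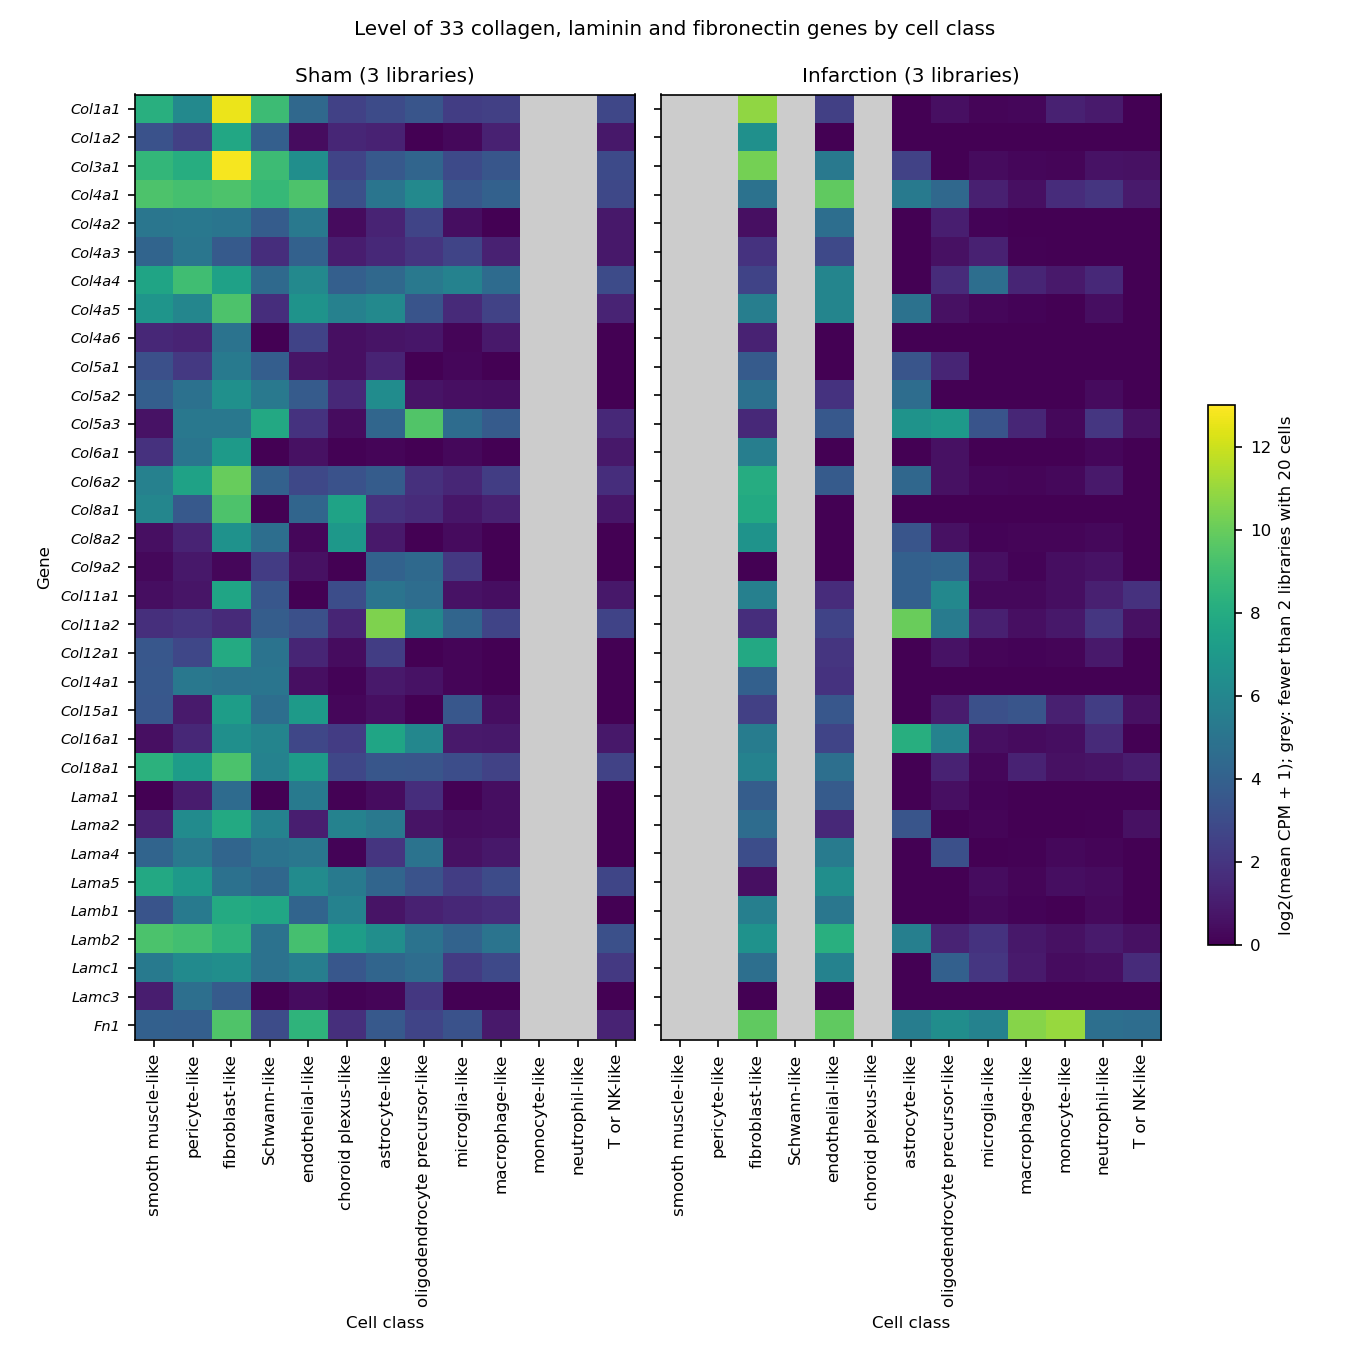
Mean level of the 33 members with a mean of at least 20 CPM in a class (rows) in 13 cell classes (columns) in sham (left) and infarction (right), as log2(mean CPM + 1); grey columns had fewer than 2 libraries with 20 cells, except that infarction fibroblast-like cells needed 10 in each library. Col1a1 and Col3a1 are brightest in sham fibroblast-like cells, Col11a2 in astrocyte-like cells, Col5a3 in oligodendrocyte precursor-like cells, and Fn1 is bright in infarction macrophage- and monocyte-like cells.

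The vessel wall cells of the sham libraries differed in which chains they carried. Pericytes, which wrap capillaries, were set against smooth muscle cells, which wrap arterioles and arteries, in 1 fit with the library as a block, since both sums of a library share its droplets. Lama2, the alpha chain of the laminin that astrocytes and pericytes lay down, stood at 1.18, 1.28 and 1.38 CPM in smooth muscle-like cells of sham 1 to 3 and at 77.9, 61.2 and 93.7 in pericyte-like cells, a log2 difference of 5.51 ± 0.10 (adjusted p = 4.90e-16). Col4a4 stood at 180, 198 and 192 CPM in smooth muscle-like cells and at 479, 508 and 566 in pericyte-like cells, higher in pericyte-like cells by 1.04 ± 0.05 (adjusted p = 1.84e-11). Col1a1, the fibrillar alpha1(I) chain, went the other way, from 290, 293 and 305 CPM in smooth muscle-like to 60.7, 74.5 and 71.3 in pericyte-like cells, -2.51 ± 0.06 (adjusted p = 6.10e-14). In each of these genes the 3 values of 1 class lay apart from the 3 of the other.

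Of 37 members tested, 15 were higher in pericyte-like and 14 in smooth muscle-like cells, against 29.1% of all genes called higher in pericyte-like and 28.3% in smooth muscle-like cells. The pericyte side held Col5a3 (5.58), Col7a1 (5.49), the anchoring fibril collagen of skin, Lamc3 (4.25), Col6a1 (3.18) and Lamb1 (1.67), and smaller differences of Col16a1 (1.57), Col6a2 (1.43), Col8a2 (1.35), Lama4 (0.73), Col5a2 (0.60), Col4a3 (0.53) and Lamc1 (0.48). Col28a1 had 64 UMIs in pericyte-like and 0 in smooth muscle-like cells, at least 80.3-fold higher. Members of the smooth muscle side included Col15a1 (-3.85), Col8a1 (-2.72), Col5a1 (-1.64), Col18a1 (-1.60), Col1a2 (-1.36), Lama5 (-1.27), Col12a1 (-1.22), Col4a5 (-1.22), Col3a1 (-0.89), Lamb2 (-0.65), Col4a1 (-0.63) and Col4a2 (-0.34). All these differences follow edgeR's scaling, and scaling by library totals alone was not run between classes. Unscaled, Col4a2 had 744 of 21400134 UMIs in pericyte-like and 2731 of 80574751 in smooth muscle-like cells. That is a slightly higher share in pericyte-like cells, so the direction of small differences depends on the scaling. Fn1 was not called (-0.48, adjusted p = 0.424), nor was Col14a1, which varied between libraries (0.819, 10.5 and 22.0 CPM in smooth muscle-like cells, 15.4, 34.8 and 55.9 in pericyte-like cells).

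Several of these calls rested on 1 library or 1 cluster. Without sham replicate 1, Col8a1 (-2.66, adjusted p = 0.172), Col4a2 (-0.20, 0.0707) and Col8a2 (0.71, 0.330) were not called; without sham replicate 2, Col6a2 (1.49, 0.143) and Col4a2 (-0.34, 0.101) were not; without sham replicate 3, Col8a2 (1.13, 0.132) was not. Without the pericyte-like cluster led by Ndufa4l2 and Rgs5, an alternative chosen after seeing the data, Col4a1 stood at -0.12 (adjusted p = 0.198), Col12a1 at -0.05 (0.809), Col1a2 at -0.49 (0.0710), Col8a1 at -1.64 (0.0742) and Col3a1 at 0.24 (0.0575). With cells of at most 10% mitochondrial UMIs, Col4a1 stood at 0.02 (0.838), Col1a2 at 0.00 (0.993), Col12a1 at 0.28 (0.575), Col15a1 at -1.76 (0.0813) and Col3a1 at 0.36 (0.0241). With members allowed in the clustering, Col4a2 stood at 0.00 (adjusted p = 0.987). Of 9 settings, Col4a2 was called lower in pericyte-like cells in 4 and Col4a1 in 7. These counts cover that direction alone. In the settings where Col4a2 neither lost its call nor kept this direction, it was called higher in pericyte-like cells.

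**Figure D3:**
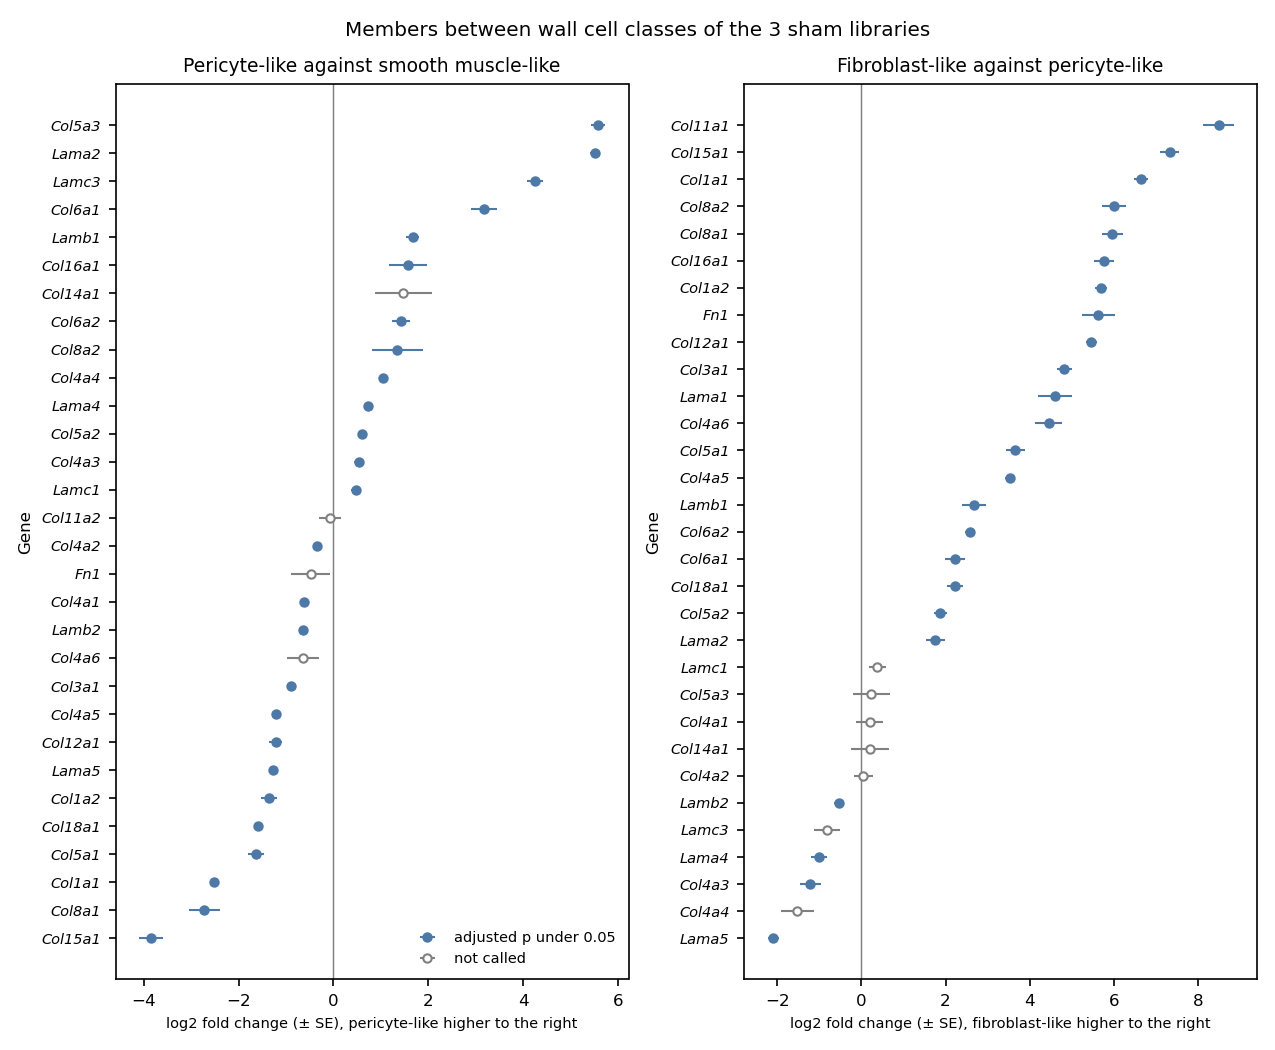
Log2 fold change with its SE (horizontal axis) of members between wall cell classes of the 3 sham libraries, pericyte-like against smooth muscle-like (left, 30 members) and fibroblast-like against pericyte-like (right, 31 members), for members with a mean of at least 20 CPM in a class; filled points had an adjusted p under 0.05. Lama2 and Col5a3 lie far to the pericyte side and Col15a1 and Col1a1 to the smooth muscle and fibroblast sides.

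Clusters within these classes also differed, given here as levels with no test. In the smooth muscle-like cluster with Eln, the elastin gene of arteries, among its leading genes, Col18a1, whose product yields endostatin, stood at 686, 698 and 640 CPM, Col15a1 at 31.4, 37.6 and 36.8 and Fn1 at 62.6, 41.5 and 23.7. In the smooth muscle-like cluster led by Rasl11a, the same genes stood at 113, 126 and 194, at 0.143, 0 and 0.413, and at 2.0, 1.27 and 0.826. The pericyte-like cluster led by Atp13a5, Abcc9 and Kcnj8 held Col4a4 at 905, 1048 and 1014 CPM and Lama2 at 232, 228 and 238, against 291, 349 and 307 and 14, 12.4 and 11.6 in the cluster led by Ndufa4l2. The third pericyte-like cluster, led by Inmt, Ccl19 and Dlk1, held Fn1 at 99.0, 90.3 and 226 CPM.

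Fibroblast-like cells, 148, 85 and 50 in sham 1 to 3, carried the fibrillar chains. Col3a1, which codes reticular type III collagen, stood at 7291, 6284 and 8098 CPM in them and at 314, 257 and 257 in pericyte-like cells, a log2 difference of 4.82 ± 0.18 (adjusted p = 8.05e-10). Col1a1 stood at 5715, 6722 and 6653 CPM and was higher by 6.64 ± 0.17 (adjusted p = 3.53e-11), and Fn1 at 1041, 675 and 352 CPM, higher by 5.63 ± 0.39 (adjusted p = 9.52e-04). The values of the classes lay apart in each of these genes, and Fn1 had the widest spread of the 3 in fibroblast-like cells.

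Of 34 members tested, 21 were higher in fibroblast-like and 5 in pericyte-like cells, against 26.1% and 22.2% of all genes called. Beside those named, the fibroblast side held Col11a1 (8.49), Col15a1 (7.33), Col8a2 (6.01), Col8a1 (5.96), Col16a1 (5.77), Col1a2 (5.70), Col12a1 (5.47), Lama1 (4.60), Col4a6 (4.45), Col5a1 (3.66), Col4a5 (3.54), Lamb1 (2.68), Col6a2 (2.59), Col6a1 (2.23), Col18a1 (2.23), Col13a1 (2.19), Col5a2 (1.88) and Lama2 (1.76). The pericyte side held Lama5 (-2.09), Col4a3 (-1.21), Lama4 (-1.0), Col7a1 (-0.68) and Lamb2 (-0.53). Col4a1 and Col4a2 were not called (0.20 and 0.05, adjusted p = 0.665 and 0.867), nor was Lamc1 (0.38, 0.195). Lamb2 was not called without sham replicate 1 (-0.47, adjusted p = 0.0584) or replicate 2 (-0.46, 0.0604), and Col7a1 not without replicate 1 (-0.35, 0.451) or replicate 3 (-0.71, 0.0644).

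Classes outside the vessel wall also carried members, and held most sham UMIs of Col11a2 and Col8a2. Col11a2, a chain of cartilage type XI collagen, had 6757 UMIs in sham, 87.3% of them astrocyte-like, with 1325, 1493 and 1428 CPM there. Col16a1, which codes a collagen that sits along other fibrils, stood at 152, 241 and 214 CPM in the same cells. Choroid plexus-like cells held 87.0% of Col8a2 UMIs and 37.4% of Col8a1 UMIs in sham, at 109, 138 and 179 and at 156, 218 and 258 CPM; type VIII collagen is known for the hexagonal lattice of Descemet's membrane in the cornea. Schwann-like cells (44, 35 and 15 in sham 1 to 3) held Col1a1 at 476, 477 and 522 CPM, Col4a1 at 444, 395 and 277, Lamb1 at 210, 200 and 163 and Col5a3 at 171, 286 and 171. These classes had too few infarction cells for a comparison.

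Fibroblast-like cells numbered 14, 24 and 10 in the infarction libraries, and Col3a1, Col15a1 and Col4a1 stood lower in them than in sham. This class was fitted with a minimum of 10 cells per library, chosen after seeing the data. Col3a1 went from 7291, 6284 and 8098 CPM in sham to 1647, 849 and 1195 in infarction, a fall of 2.49 ± 0.26 on the log2 scale (adjusted p = 5.27e-04). Col15a1 went from 163, 150 and 135 to 4.20, 1.36 and 8.27 CPM, -5.32 ± 0.41 (adjusted p = 1.23e-04). The latter values rest on 4 UMIs in infarction and 582 in sham, a ratio of 46.5 with a 95% counting interval of 18.1 to 171. Col4a1 went from 714, 892 and 340 to 54.6, 16.3 and 16.5 CPM, -4.54 ± 0.56 (adjusted p = 0.00245). No infarction value of these 3 genes reached the lowest sham value.

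Of 30 members tested in fibroblast-like cells, 0 rose and 22 fell, against 8.39% and 10.4% of all 6588 genes tested; no member rose at an unadjusted p under 0.05 either. The median was -1.79 over the members tested and -0.01 over all genes. These 30 members passed the filter on low counts, several of them only through sham, where they were high. Nothing is read from the count or the median. The fibrillar chains Col1a1 (5715, 6722 and 6653 to 2755, 997 and 1658 CPM), Col11a1 and Col1a2 fell by 1.76, 1.97 and 1.32. Among basement membrane genes, Col4a4 fell by 5.23, Lama2 by 3.51, Lamb1 by 2.35 and Lamb2 by 1.82. Col4a2, Lama5 and Col4a6 each had 1 UMI in infarction, and 127, 105 and 107 in sham, with ratios of 40.6 (7.16 to 1616), 33.6 (5.89 to 1338) and 34.2 (6.01 to 1363). Col6a2 and Col8a1 fell by 1.89 and 1.43. Col12a1, a collagen that decorates fibrils, was not called, at 324, 249 and 158 CPM in sham and 286, 241 and 165 in infarction (-0.00 ± 0.29, adjusted p = 0.996). Col8a2 stood at 69.6, 82.0 and 141 and at 139, 80.3 and 82.7 (0.10 ± 0.33, adjusted p = 0.865), and Fn1 at 1041, 675 and 352 and at 785, 522 and 1414 (0.46 ± 0.48, adjusted p = 0.550).

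Fewer of these calls held when a library was left out. Without infarction replicate 2, Col4a4 (-4.69, adjusted p = 0.0556), Lama2 (-2.97, 0.0615), Lamb1 (-1.98, 0.0720), Col1a2 (-0.90, 0.0537), Col5a1 (-1.37, 0.0704), Col5a3 (-4.00, 0.0864), Col18a1 (-3.13, 0.159), Col6a1 (-1.08, 0.0952) and Lamc1 (-1.71, 0.169) were not called. Without infarction replicate 3, Col4a5 (-3.69, 0.0937), Col1a2 (-1.34, 0.0935), Col6a1 (-1.52, 0.132), Lamb1 (-2.16, 0.0504) and Lamc1 (-1.26, 0.0620) were not. Leaving out sham replicate 1, 2 or 3 ended the calls of Col18a1 (adjusted p = 0.130, 0.135 and 0.0778), Col4a5 (0.114, 0.128 and 0.0979), Col1a2 (0.0812, 0.0973 and 0.0703) and Col6a1 (0.136, 0.124 and 0.0574); it ended that of Lamc1 without replicate 1 or 2 (0.138 and 0.125) and that of Col5a2 without replicate 1 (0.0634). Other marker sums moved with the group in this class. The 12 fibroblast markers summed to 53470, 50917 and 42757 CPM in sham and to 23539, 6847 and 10640 in infarction, all 12 detected in each. The 10 smooth muscle markers went from 3337, 5079 and 2531 to 239, 121 and 33.1 CPM, the 12 astrocyte markers from 273, 232 and 384 to 1626, 1018 and 1608 and the 12 macrophage markers from 96.8, 105 and 63.8 to 567, 392 and 1476. Their part in the falls was not tested.

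Endothelial-like cells (81, 216 and 56 in sham, 41, 51 and 75 in infarction) had 4 of 14 tested members called, with Fn1 the call of the lowest adjusted p. Fn1 went from 306, 393 and 367 CPM in sham to 917, 916 and 889 in infarction, a rise of 1.49 ± 0.16 (adjusted p = 5.94e-05). The 3 infarction values lay close together and all above sham, and thinned to 1000 UMIs per cell, 30.2% of sham and 51.1% of infarction cells held an Fn1 UMI (68.8% and 80.2% unthinned, at median depths of 7094 and 3802 UMIs). The 824 Fn1 UMIs of infarction endothelial-like cells stood beside 5 UMIs of Arg1, an arginase gene of wound macrophages, whereas macrophage-like cells held 153113 Fn1 beside 35753 Arg1 UMIs.

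Of 14 members tested in endothelial-like cells, 2 rose and 2 fell, against 5.01% and 5.58% of all 5991 genes. Scaled by library totals alone, 240 of all genes were called higher and 531 lower, in place of 300 and 334. Col4a1 went from 733, 640 and 577 to 896, 781 and 1046 CPM, 0.62 ± 0.15 (adjusted p = 0.0172). Lamb2 went from 690, 489 and 568 to 277, 230 and 385, -0.82 ± 0.20 (adjusted p = 0.0143), and Col18a1 from 217, 120 and 81.8 to 24.5, 15.3 and 38.5, -2.22 ± 0.48 (adjusted p = 0.0209). The groups did not overlap for these 3 genes. The other chains of endothelial laminin, Lama4 (0.41), Lama5 (0.30), Lamb1 (1.34) and Lamc1 (0.34), were not called, nor were Col4a2 (-0.43), Col4a5 (-0.62, adjusted p = 0.0818), Col4a4 (-0.06) and Lama1 (-1.49, adjusted p = 0.0556), which was called in 6 of 12 settings. Col15a1 stood at 196, 208 and 1.46 CPM in sham and at 7.0, 0 and 24.8 in infarction, so that sham 3 lay with the infarction libraries (-3.42 ± 1.89, adjusted p = 0.366), and without sham replicate 3 it was called (-3.93, 8.18e-04). Per 100 Col4a1 UMIs, endothelial-like cells held 5.31, 5.83 and 6.08 Col4a2 UMIs in sham and 2.34, 2.94 and 2.89 in infarction, while the 3 sham libraries together held 5.04 in smooth muscle-like, 6.09 in pericyte-like and 4.81 in fibroblast-like cells. In 3′ counts such a ratio does not give the proportion of the chains.

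Of the 4 calls, that of Fn1 held whichever library was left out. Col4a1 was not called without sham replicate 2 (0.61, adjusted p = 0.0520), sham replicate 3 (0.55, 0.0793), infarction replicate 1 (0.65, 0.0520) or infarction replicate 3 (0.55, 0.0647), nor when libraries were scaled by totals alone (0.48, 0.0566). Lamb2 was not called without sham replicate 1 (-0.70, 0.0739), infarction replicate 1 (-0.75, 0.0807) or infarction replicate 2 (-0.67, 0.0750), and Col18a1 not without infarction replicate 1 (-2.14, 0.119) or replicate 2 (-1.98, 0.111). In these cells the 10 smooth muscle markers summed to 3223, 2533 and 1574 CPM in sham and to 87.5, 153 and 1134 in infarction, and the macrophage markers to 47.6, 341 and 13.2 and to 1166, 1567 and 650, beside 10004 to 12977 in macrophage-like cells. The endothelial markers summed to 16843, 19643 and 18084 and to 15152, 12350 and 15537. The part of smooth muscle RNA in the falls of Lamb2 and Col18a1 was not tested.

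**Figure D4:**
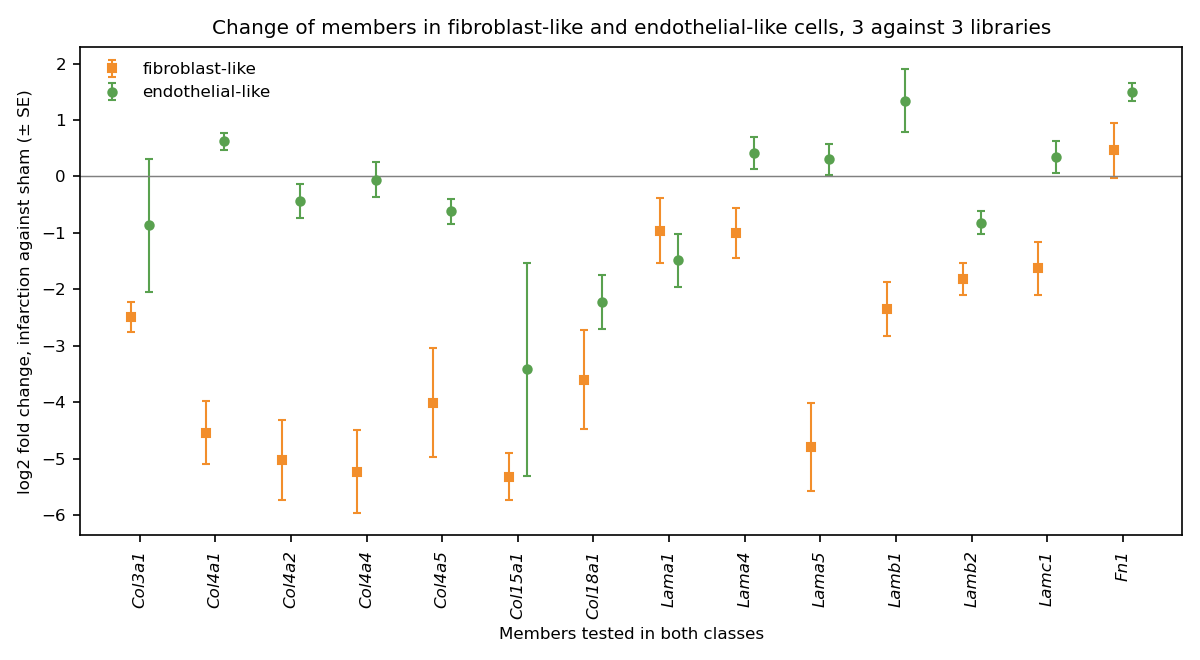
Log2 fold change in infarction against sham with its SE (vertical axis) for the 14 members tested in both fibroblast-like (orange squares) and endothelial-like cells (green circles). Type IV genes and Lama5 lie far below 0 in fibroblast-like cells and near it in endothelial-like cells.

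Whether the change differed between these classes was tested directly, by an interaction term in a model that blocked on library. Of 31 members tested, 0 changed more upward and 7 more downward in fibroblast-like than in endothelial-like cells, against 1.25% and 3.19% of all 7897 genes. Several of the 31 passed the filter on low counts only through the group where they were high, so nothing is read from the count. The 7 were Col5a3 (-6.36), Lama5 (-5.41), Col4a1 (-5.12 ± 0.49, adjusted p = 8.11e-04), Col4a4 (-4.82), Col4a2 (-4.67), Col6a2 (-3.36) and Lamc1 (-2.0). Col5a3 had 2 UMIs in infarction fibroblast-like cells and 11 in infarction endothelial-like cells. Col6a2 had 19 UMIs in sham and 12 in infarction endothelial-like cells. Neither gene passed the filter on low counts in endothelial-like cells alone. Fn1 (-1.07 ± 0.60, adjusted p = 0.463), Lamb2 (-1.03, 0.0761) and Col3a1 (-1.68, 0.617) were not called. Col4a1 and Col4a4 were called whichever library was left out. Without infarction replicate 2, Col4a2 (-7.58, adjusted p = 0.0522), Lama5 (-7.77, 0.124) and Col6a2 (-3.57, 0.0963) were not. Col5a3 was not called without sham replicate 1 (0.0800), sham replicate 2 (0.0823), infarction replicate 1 (0.0740) or infarction replicate 3 (0.257), Col6a2 not without sham replicate 2 (0.0750), sham replicate 3 (0.0852) or infarction replicate 3 (0.258), and Lamc1 not without any of the libraries other than infarction replicate 2 (0.0516 to 0.107).

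In macrophage-like cells Fn1 went from 1.33, 1.17 and 0 CPM in sham to 1841, 1730 and 1208 in infarction. The sham value rests on 2 UMIs in 378 cells and the infarction value on 153113 UMIs in 6730 cells, a ratio of 1882 with a 95% counting interval of 521 to 15539. Of infarction macrophage-like cells 92.9% held an Fn1 UMI, and 64.6% after thinning to 1000 UMIs, against 0.529% and 0 in sham, at median depths of 13058 and 5902 UMIs. In infarction T or NK-like cells, at a median of 5138 UMIs, the shares were 8.74% and 1.45% and the levels 32.9, 31.1 and 7.80 CPM. In monocyte-like cells, which numbered 246, 359 and 260 in infarction, Fn1 stood at 1973, 1840 and 2262 CPM, with 97.8% of cells holding a UMI (77.4% after thinning). The sham libraries held 4, 22 and 2 monocyte-like cells, too few for a test. Of these 28 cells 46.4% held an Fn1 UMI (42.9% after thinning), at a median depth of 4779 UMIs against 9074 in infarction.

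Different clusters made up the class in the 2 groups. All sham macrophage-like cells lay in the cluster led by Cxcl13, Fcmr and Lyve1, the last a marker of border macrophages, which held 58, 56 and 49 infarction cells. Most infarction cells lay in the clusters led by Ccl24, Arg1 and Vcan (1202, 1011 and 804 cells, Fn1 at 2464, 2625 and 2154 CPM) and by Apoc1, Mmp12 and Fabp4 (615, 1266 and 1469 cells, Fn1 at 1196, 1339 and 933 CPM). Within the Lyve1 cluster Fn1 stood at 1.33, 1.17 and 0 CPM in sham and at 6.79, 32.2 and 24.0 in infarction, beside 32.9, 31.1 and 7.80 in T or NK-like cells of the same libraries. In that cluster alone, an alternative chosen after seeing the data, Fn1 did not pass the filter on low counts.

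Of 15 members tested in macrophage-like cells, 3 rose and 12 fell, against 27.7% and 25.3% of all 10555 genes. These 15 are the members of 45 that passed the filter on low counts, several of them only through the group where they were high, so nothing is read from the count. Scaled by library totals alone, 1756 of all genes were called higher and 4189 lower, in place of 2927 and 2668, and their median moved from 0.01 to -0.44. Fn1 rose by 11.35 ± 0.38 (adjusted p = 8.39e-08). Col15a1 went from 0, 0 and 1.25 CPM to 8.04, 8.97 and 11.8, 4.95 ± 0.69 (adjusted p = 1.21e-04), from 1 to 960 UMIs, a ratio of 23.6 (4.23 to 933). It stood at 13, 11.5 and 14 CPM in the Fabp4 cluster and at 4.49, 4.59 and 5.50 in the Arg1 cluster, and 9.84% of infarction macrophage-like cells held a UMI (0.870% after thinning), against 0.350% (0 after thinning) of T or NK-like cells. Col17a1 stood at 0 in all sham sums and at 0.784, 0.946 and 1.31 CPM in infarction. Over the group the latter came to 1.04 CPM, under the 1.24 CPM that 3 UMIs would give over the sham group, so no fold is given. Its call (adjusted p = 0.0464) was lost without each sham library in turn (0.0901, 0.0948 and 0.0933). Col15a1 and Col17a1 were named after their values were seen. Without any 1 of the infarction libraries only 5 members passed the filter, namely Fn1, which was called higher, and Lamb2, Col4a1, Col4a4 and Col5a3, which were called lower. The other calls in this class, Col15a1, Col17a1, Col1a1, Col3a1 and Col18a1 among them, have no value there.

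The falls were those of genes at low levels. Lamb2 went from 27.9, 32.7 and 31.1 CPM to 0.477, 0.881 and 0.944 (-4.84 ± 0.31, adjusted p = 5.20e-07), Col4a1 from 16.0, 19.8 and 11.2 to 0.204, 0.555 and 0.603 (-4.62 ± 0.47, adjusted p = 1.25e-05) and Col4a4 from 31.9, 18.7 and 17.4 to 0.852, 1.93 and 1.94 (-3.38). The 10 smooth muscle markers moved with them, from 1834, 1725 and 1755 CPM in sham macrophage-like cells to 1.19, 1.63 and 9.70 in infarction, and per 1000 Tagln UMIs Col4a1 equalled smooth muscle-like cells within counting error, as given above. Lamb2 stood at 38.1 per 1000 Tagln UMIs in sham macrophage-like cells and 19.8 in smooth muscle-like cells, and Col4a4 at 27.8 and 5.96. Col18a1 fell by 1.38 (adjusted p = 0.0221), was not called without sham replicate 1 (-1.09, 0.151) or sham replicate 2 (-1.35, 0.0658) and stood at 1.81 (0.189) with cells of at most 10% mitochondrial UMIs. Lamc1 (-2.24) was not called without sham replicate 3 (-1.47, 0.110), nor Col11a2 (-3.08) without sham replicate 2 (-2.53, 0.0974).

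Microglia-like cells, the resident macrophages of the brain, numbered 406, 1122 and 1777 in sham and 871, 1707 and 999 in infarction. In sham the members that stood highest in them were Col4a4 and Col5a3. Col4a4 went from 50.7, 54.6 and 55.6 CPM to 19.0, 26.0 and 30.1, a fall of 1.14 ± 0.15 (adjusted p = 1.09e-04). Per 1000 Tagln UMIs it stood at 108 (101 to 116) in sham microglia-like, 17.1 in T or NK-like and 5.96 in smooth muscle-like cells, and 22.3% of sham microglia-like cells held a UMI against 2.92% of T or NK-like cells at median depths of 5079 and 5100. Col5a3 went from 13.9, 25.5 and 29.6 to 12.1, 9.84 and 6.23 CPM, -1.38 ± 0.31 (adjusted p = 0.00720), and stood at 52.4 (47.6 to 57.4) per 1000 Tagln UMIs against 0.0176 in smooth muscle-like cells. Most sham cells lay in the cluster led by Tmem119 and P2ry12 (302, 805 and 1260 cells, and 16, 143 and 95 in infarction). In that cluster alone, chosen after seeing the data, Col4a4 stood at 53.9, 57.4 and 58.9 CPM in sham and 60.6, 49.3 and 67.2 in infarction (-0.11, adjusted p = 0.684), and Col5a3 at -0.77 (adjusted p = 0.175).

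Of 16 members tested in microglia-like cells, 1 rose and 13 fell, against 32.4% and 31.7% of all 10447 genes. Several of the 16 passed the filter on low counts only through sham, where they were high, so nothing is read from the count. The riser was Fn1, from 6.51, 11.1 and 8.65 CPM to 34.0, 64.5 and 60.9 (2.51 ± 0.32, adjusted p = 5.50e-04). Its infarction values stood beside 32.9, 31.1 and 7.80 CPM in T or NK-like cells, and per 1000 Arg1 UMIs Fn1 stood at 8705 (7560 to 10065) in microglia-like, 4750 (2183 to 11787) in T or NK-like and 4283 (4233 to 4332) in macrophage-like cells. These rest on 217, 8 and 35753 Arg1 UMIs, so that the value of T or NK-like cells cannot be told from either of the others. It was highest in the cycling cluster led by Ube2c and Top2a, at 67.0, 135 and 138 CPM. Among the falls were Col18a1 (-5.38), Col1a1 (-4.81), Col3a1 (-4.66) and Col4a1 (-3.22). In sham microglia-like cells they stood at 13.6, 8.03, 13.1 and 21.0 per 1000 Tagln UMIs, beside 10.3, 9.30, 12.2 and 21.1 in smooth muscle-like cells. They were chosen from the 13 falls. Col4a4 and Col5a3, given above, stood far higher than in smooth muscle-like cells, and ratios of the remaining falls are not given. Col11a2 (-4.02) also fell, and 87.3% of its UMIs in sham were astrocyte-like. The smooth muscle markers summed to 948, 1013 and 1162 CPM in sham microglia-like cells and to 3.97, 3.18 and 4.96 in infarction. Col15a1 and Lamc1 were not called (-0.41 and -0.17).

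The changes in macrophage-like and microglia-like cells differed for 8 of 20 members tested, 3 higher and 5 lower in macrophage-like cells, against 17.5% and 16.1% of all 11359 genes. Several of the 20 passed the filter on low counts only through the group where they were high, so nothing is read from the count. Different clusters also made up the macrophage-like class in sham and infarction, as given above. Higher were Fn1 (8.88 ± 1.16, adjusted p = 0.00594), Col15a1 (5.43, 1.83e-05) and Col18a1 (4.10, 1.28e-04). Lower were Col4a4 (-2.18), Lamb2 (-2.15), Lamc1 (-2.04), Col4a1 (-1.38) and Col5a3 (-1.08). Col4a1 was not called without sham replicate 1 (-1.28, 0.0633), sham replicate 2 (-1.23, 0.104), infarction replicate 2 (-1.33, 0.0758) or infarction replicate 3 (-1.25, 0.0900). Col5a3 was not called without sham replicate 2 (-1.07, 0.116), sham replicate 3 (-0.65, 0.407), infarction replicate 1 (-0.85, 0.0948) or infarction replicate 2 (-1.05, 0.0564), and Lamc1 not without sham replicate 3 (-1.11, 0.334).

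**Figure D5:**
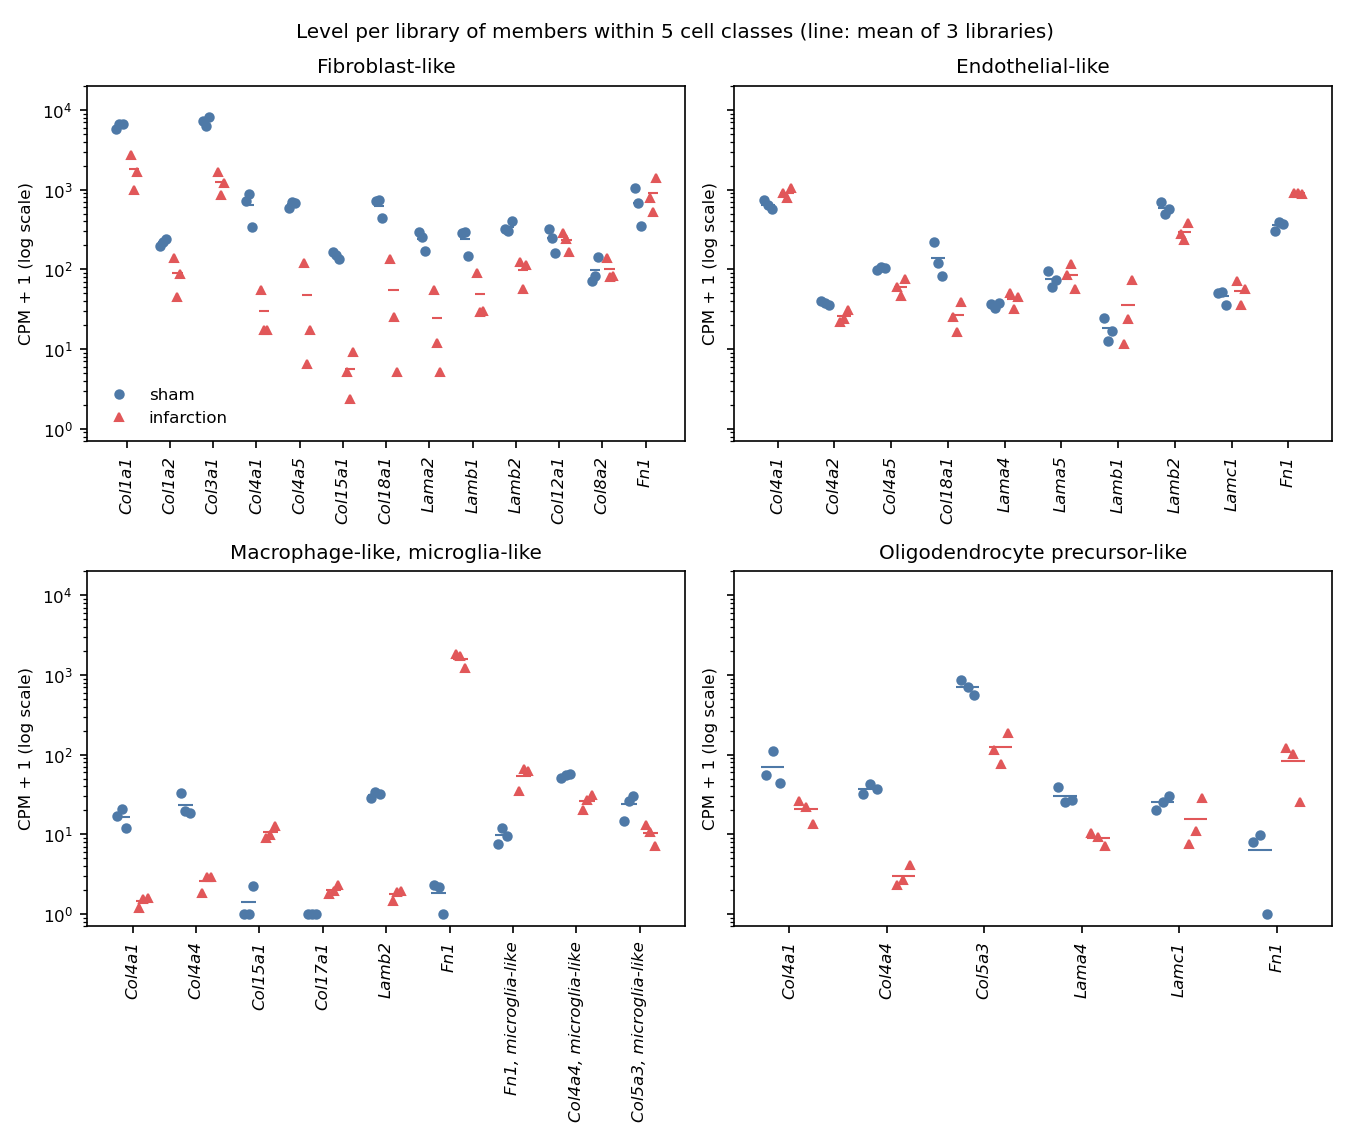
Level of members per library (points) and the mean of 3 libraries (lines) in sham (blue circles) and infarction (red triangles), as CPM + 1 on a log axis, in fibroblast-like, endothelial-like, macrophage-like with microglia-like, and oligodendrocyte precursor-like cells. Fn1 of macrophage-like cells lies near 1 in sham and at 1208 to 1841 in infarction, and Col5a3 of precursor-like cells lies at 568 to 864 in sham and 75.8 to 184 in infarction.

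In oligodendrocyte precursor-like cells (91, 65 and 77 in sham, 56, 47 and 74 in infarction) Col5a3, a minor chain of type V collagen, was the leading member. It went from 864, 712 and 568 CPM to 114, 75.8 and 184, a fall of 2.27 ± 0.33 (adjusted p = 0.00162). The groups lay apart, and the share of cells with a UMI went from 81.1% to 49.2% (55.3% to 22.1% after thinning), against 1.17% and 0.350% of T or NK-like cells. Per 1000 Tagln UMIs it stood at 578 (537 to 621) in these cells in sham and 5.26 in T or NK-like cells. The call held whichever library was left out.

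Of 11 members tested in precursor-like cells, 1 rose and 4 fell, against 14.2% and 13.8% of all 6795 genes. Some of the 11 passed the filter on low counts only through the group where they were high, so nothing is read from the count. Fn1 went from 7.03, 8.88 and 0 CPM to 121, 101 and 24.8 (4.28 ± 0.92, adjusted p = 0.0148) and was not called without sham replicate 1 (4.59, 0.0628); per 1000 Arg1 UMIs it stood at 6222 (4128 to 9721) from 27 Arg1 UMIs, within the wide counting error of T or NK-like cells (2183 to 11787). Col4a4 went from 31.6, 42.2 and 36.0 to 1.33, 1.65 and 3.1 CPM (-3.80 ± 0.47, adjusted p = 0.00101). Lama4 fell by 1.62 (adjusted p = 0.0128) and was not called without sham replicate 1 (-1.41, 0.0800) or infarction replicate 2 (-1.52, 0.0648). Col4a1 went from 54.4, 109 and 42.6 to 25.3, 21.4 and 12.4 CPM (-1.49 ± 0.44, adjusted p = 0.0317) and was called without sham replicate 3 but not without any of the others (0.0611 to 0.113). Col11a1 stood at 28.1, 24.4 and 19.7 and at 81.2, 8.24 and 105 CPM (1.68, adjusted p = 0.145). It was called higher without infarction replicate 2 (2.32, 0.00576) and with DESeq2 (1.73, 0.0407) and lower at clustering resolution 2 (-1.26, 0.0207), so that its direction depends on the setting. Col16a1, called lower at that resolution (-1.06, 0.0155), Col9a2, Col20a1, Col11a2 and Lamc1 were not called either. Scaled by library totals alone, 691 of all genes were called higher and 1421 lower in this class, in place of 968 and 937. Beside these changes, the 9 precursor markers summed to 9319, 8490 and 6389 CPM in sham and to 1405, 1363 and 2021 in infarction, the 10 oligodendrocyte markers to 6184, 2991 and 35877 and to 1451, 1845 and 21767, and the smooth muscle markers to 1393, 6182 and 1390 and to 3.99, 14.8 and 18.6. Their part in the falls was not tested.

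No member passed the filter on low counts in T or NK-like cells, so that 0 were tested in that class. Without the filter, edgeR called Fn1 higher there (4.15, adjusted p = 1.85e-06) and Lamb2 (-3.48, 0.0392) and Col4a4 (-5.05, 0.0269) lower. With the filter, Fn1 was called higher without sham replicate 1 (4.55, 0.0111) or sham replicate 3 (4.62, 0.0179). The same held without infarction replicate 3 (4.62, 6.97e-04), whereas no member was called without any other library. Fn1 rose by 2.51 in microglia-like and 4.28 in precursor-like cells, and the part of free RNA in those rises was not tested.

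Genes that make, cut or bind these proteins were read in the same fits. Over all kept cells, where 33.2% of all genes were called higher and 38.1% lower, 10 of 10 tested other basement membrane genes fell (median -3.87), among them Sparc, a collagen-binding protein of vessels (2646, 2497 and 2820 to 143, 186 and 182 CPM, -3.50), Agrn (-3.48) and Nid1 (-5.65). Of 10 genes of propeptide cleavage and crosslinking, 1 rose and 9 fell (median -3.78), and of 16 integrin subunits 3 rose and 12 fell (median -3.21), with Itga8 at -9.66 and Itga1 at -6.72. Of 21 elastic fibre and fibronectin-associated genes 2 rose and 15 fell (median -3.33). The hydroxylation and folding enzymes were split, with 7 of 18 higher and 9 lower (median -0.43): P4hb, the disulfide isomerase subunit of prolyl hydroxylase, went from 236, 224 and 238 to 531, 512 and 533 CPM (1.64), whereas P3h3 fell by 1.79. Of 11 other matrix receptors 3 rose and 6 fell, and the syndecan Sdc1 (6.35) and the hyaluronan receptor Cd44 (6.04) rose.

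Within fibroblast-like cells, where 8.39% of all genes were called higher and 10.4% lower, 3 of 6 tested other basement membrane genes fell and 0 rose (median -1.77), and of 15 folding enzymes 1 rose and 1 fell (median 0.06). In macrophage-like cells, against 27.7% and 25.3% of all genes, 8 of 16 folding enzymes rose and 4 fell (median 0.77), with P4hb at 305, 279 and 337 CPM in sham and 683, 639 and 655 in infarction (1.56, adjusted p = 4.95e-07) and Ppib, a prolyl isomerase, at 1.45, while the collagen chaperone Serpinh1 fell by 4.16. Cd44 went from 51.9, 47.8 and 77.2 to 570, 494 and 387 CPM (3.50) and Sdc1 by 5.77, among 4 of 9 other receptors that rose. In endothelial-like cells, against 5.01% and 5.58%, Itga1, a collagen receptor subunit, went from 242, 226 and 200 to 98.0, 57.5 and 77.1 CPM (-1.38, adjusted p = 6.81e-04) as the lone call among 5 integrin subunits, and P4hb rose by 0.75 (adjusted p = 0.0172). In precursor-like cells, against 14.2% and 13.8%, Itgav and Itgb8 fell by 2.71 and 1.72, Cd44 went from 0, 0 and 0 to 361, 303 and 215 CPM, and Tnc, the tenascin gene, rose by 3.13 (38.6, 13.3 and 14.7 to 149, 259 and 79.1 CPM).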

How the data were processed

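Single-cell libraries were made from 3 sham and 3 infarction samples with a droplet 3′ v3.1 kit, per the labels' protocols. The authors deposited UMI counts per gene and barcode; the submitters' processing notes name CASAVA 1.8, Cell Ranger 3.1.0 and Seurat 2.3.4, and the genome build is not given in the sources used here. Barcodes with at least 500 UMIs, 200 genes and at most 20% mitochondrial UMIs (13 genes) and a Scrublet score up to 0.25 were kept. Cells were clustered with scanpy 1.11.5 (2000 variable genes without members, 30 components, 15 neighbours, resolution 1.0). A cluster was named from at least 3 markers found in 25% of its cells and 1 log2 unit above the other cells.

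Counts were summed per library and class (at least 20 cells in every library) and tested with edgeR 4.0.16 in R 4.3.3 (TMM scaling, its expression filter, robust quasi-likelihood test, Benjamini-Hochberg adjustment over all genes tested, threshold 0.05); comparisons between classes carried the library as a block. The same steps were tested on simulated counts. Members called were named where a group mean reached 20 CPM, up to 10 per direction, and others are named as exceptions. The members, gene lists and tests were chosen with earlier results of these data known. Alternatives were other scalings, no filter, DESeq2 1.42.0, a replicate block, each library left out, other cell filters and clusterings, and 6 added after seeing the data. Intervals cover counting error only. The values of 1 member are not reported here, though the counts include it.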

Additional observations from a re-analysis of the deposited data

Results flagged for a closer look

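The results listed here had a change between sham and infarction that differed between 2 cell classes by a test of the difference itself (edgeR's quasi-likelihood test of the interaction, Benjamini-Hochberg adjusted p under 0.05). Between macrophage-like and microglia-like cells, the change in macrophage-like cells was higher for Fn1 by 8.88, for Col15a1 by 5.43 and for Col18a1 by 4.10 on the log2 scale. It was lower for Col4a4 (-2.18), Lamb2 (-2.15), Lamc1 (-2.04), Col4a1 (-1.38) and Col5a3 (-1.08). Col18a1 fell in both classes, by 1.38 in macrophage-like and by 5.38 in microglia-like cells. In sham microglia-like cells Col18a1 and Col4a1 stood at 13.6 and 21.0 UMIs per 1000 Tagln UMIs, beside 10.3 and 21.1 in smooth muscle-like cells. Sham and infarction macrophage-like cells lay mostly in different clusters, so these values also hold the difference between clusters.

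Between fibroblast-like and endothelial-like cells, the change in fibroblast-like cells was lower for Col5a3 (-6.36), Lama5 (-5.41), Col4a1 (-5.12), Col4a4 (-4.82), Col4a2 (-4.67), Col6a2 (-3.36) and Lamc1 (-2.0). This comparison was added after seeing the data. The infarction libraries held 48 fibroblast-like cells in all. Endothelial-like cells held 11 UMIs of Col5a3 in infarction, and 19 of Col6a2 in sham and 12 in infarction.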

How the results depend on the processing

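Counts of members called that moved by over 1.5 times were these. Without the filter on low counts, T or NK-like cells had 1 higher and 2 lower, endothelial-like 4 and 5, precursor-like 7 lower, fibroblast-like against pericyte-like 8 lower, and the fibroblast-endothelial difference 1 higher and 11 lower. Without doublet removal, T or NK-like cells had 2 lower, endothelial-like 4 and microglia-like 20. With library totals alone endothelial-like cells had 1 higher and 4 lower, with resolution 2 they had 4 lower, and with DESeq2 precursor-like cells had 2 higher. With at most 10% mitochondrial UMIs, macrophage-like cells had 7 lower, fibroblast-like against pericyte-like 8, pericyte-like against smooth muscle-like 8 and the macrophage-microglia difference 2; Col18a1 in macrophage-like cells (1.81) and Col4a1 (0.02), Col3a1 (0.36), Col12a1 (0.28) and Col1a2 (0.00) in pericyte-like against smooth muscle-like cells reversed. Added after seeing the data, the Lyve1 cluster alone had 0 higher and 2 lower, the Tmem119 cluster alone 3 lower, and pericyte-like cells without the Ndufa4l2 cluster 9 lower, with Col3a1 reversed (0.24).

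With each library left out in turn, the counts higher and lower ranged over 3 and 38 to 40 (all kept cells), 0 to 1 and 0 (T or NK-like), 1 to 2 and 0 to 3 (endothelial-like), 1 to 2 and 4 to 12 (macrophage-like), 1 and 13 to 17 (microglia-like), 0 to 2 and 2 to 4 (precursor-like), 0 and 13 to 24 (fibroblast-like), 21 to 25 and 4 to 6 (fibroblast-like against pericyte-like), 14 to 16 and 12 to 16 (pericyte-like against smooth muscle-like), 3 and 3 to 5 (macrophage-microglia difference) and 0 and 4 to 9 (fibroblast-endothelial difference). The cause was not tested. Of the other values, 1380 kept their direction and side of the threshold, 87 lost and 16 gained a call. These counts leave out Col4a2 between pericyte-like and smooth muscle-like cells, which was called in either direction across settings.

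Same-numbered sham and infarction libraries correlated at 0.021, -0.058 and 0.111 in their deviations, and not every library correlated best with its own number; with the replicate number as a block, all kept cells had 3 members higher and 40 lower, and Col4a5 in fibroblast-like cells (-4.41, adjusted p = 0.0816) and Col17a1 in macrophage-like cells (0.0675) were not called, whereas Col9a2 in all kept cells (-1.25, 0.0185) and Lama1 in endothelial-like cells (-1.54, 0.0268) were. Endothelial-like, precursor-like and fibroblast-like cells could not be fitted at 10% mitochondrial UMIs, nor precursor-like cells with members in the clustering, for lack of cells. Depth limits the fibroblast-like results, where several members had 1 to 4 UMIs in infarction.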
